A study of Mus musculus with 12 samples.

Results

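Cd207, Epcam, Ciita, Cd74, H2-Aa, H2-Ab1, H2-Eb1, H2-DMa and H2-DMb1 are genes of the epidermal Langerhans cell and of antigen presentation on MHC class II molecules. These 9 genes were listed by name, with earlier results of these data known and with no threshold on a measured value, out of 19477 mouse genes with an expression value at either age, and each had a value in every library. RNA of dorsal epidermis was sequenced from mice of C57BL/6 background in 4 groups of 3 libraries, to ask what the keratinocyte loss of Vdr, the receptor for vitamin D, and of Med1, a Mediator subunit that it recruits, does to gene expression. The libraries labelled DKO (double knockout) at postnatal day 36 (P36) and at 6 months came from VDR fl/fl, Med1 fl/fl mice with K14 Cre+/-. The control libraries of the same ages came from VDR fl/fl, Med1 fl/fl mice with K14 Cre-/-, so that both genotypes carried the floxed alleles and the Cre transgene was present in the DKO mice alone. The K14 promoter is active in keratinocytes and not in Langerhans cells, which derive from the blood-forming lineage. Whether replicates came from different mice is not stated in the labels, and the p-values below cover the variation among these samples, which may be technical.

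Langerhans cells are the antigen-presenting cells of the epidermis. They carry langerin (Cd207), the lectin that forms Birbeck granules, and the adhesion molecule Epcam, which in skin is also made by keratinocytes and hair follicle cells. MHC class II molecules are pairs of an alpha and a beta chain that show peptides to CD4 T cells. H2-Aa and H2-Ab1 encode the chains of the I-A molecule, and H2-Eb1 encodes the beta chain of I-E. The invariant chain (Cd74) fills the groove of a new class II molecule until it reaches the endosome, where the H2-DMa and H2-DMb1 proteins help exchange the last fragment of it for a peptide. The coactivator Ciita switches these genes on in cooperation with the RFX, CREB and NF-Y factors, which sit on the X and Y boxes of their promoters.

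Promoters of class II members are shown here for their X and Y box letters, a feature that did not enter the choice of the genes. RefSeq promoter windows (assembly GRCm38.p6) were given for 6 of the 9 genes, namely Cd207, Epcam, H2-Aa, H2-Eb1, H2-DMa and H2-DMb1. The windows were searched on both strands over the 250 bases before the gene start for a run of letters typical of the X box and for the Y box letters ATTGG, whose opposite-strand form is CCAAT. The 130 bases directly before the start are printed 5′ to 3′ on the gene's own strand, with matches in capitals, the longer run being the X box letters. They are chr17:34305737-34305866 (plus strand) for H2-Eb1, chr17:34153061-34153190 (plus strand) for H2-DMb1 and chr17:34287824-34287953 (minus strand) for H2-Aa.
H2-Eb1: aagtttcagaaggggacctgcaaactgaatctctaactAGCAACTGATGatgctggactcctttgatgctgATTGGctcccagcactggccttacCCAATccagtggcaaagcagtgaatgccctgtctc
H2-DMb1: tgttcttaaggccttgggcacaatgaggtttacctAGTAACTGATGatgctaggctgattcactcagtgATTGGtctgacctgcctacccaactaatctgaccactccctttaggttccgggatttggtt
H2-Aa: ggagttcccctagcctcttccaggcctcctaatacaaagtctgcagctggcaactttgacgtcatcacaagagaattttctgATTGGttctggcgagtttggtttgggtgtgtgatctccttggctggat
In H2-Eb1 the X box letters began 92 bases before the start, ATTGG began 59 bases before it, and CCAAT began 35 bases before it. H2-DMb1 held the same order, with the X box letters at 95 bases and ATTGG at 61 bases before the start. H2-Aa held ATTGG at 48 bases before the start and no match to these X box letters. H2-DMa had windows at 2 starts, neither with the X box letters and 1 with ATTGG, at 198 bases before the start. The windows of Cd207 and Epcam held neither. Over 32851 promoter windows of all genes, 0.816% held the X box letters, 33.8% the Y box letters and 0.292% both. The X box letters followed on the gene strand by ATTGG within 15 to 30 bases, a spacing chosen after these promoters had been seen, occurred in 5 windows (0.0152%), those of H2-DMb1, H2-Eb1, H2-Eb2, Gm31108 and Gm51881. A match is a description of the letters and not evidence of binding.

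The deposited FPKM columns (fragments scaled by gene length and by library total) summed to between 446617 and 554382, 12056 to 12760 genes reached 1 FPKM in a library, and the number of reads is unknown. The keratinocyte genes Krt5, Krt14, Krt1 and Krt10 summed to 8319 to 11157 FPKM in libraries labelled DKO at P36 and 3479 to 5547 FPKM in control at P36, and to 7612 to 9948 and 9129 to 14048 FPKM at 6 months. Of the targeted genes, Med1 averaged 9.11 ± 1.11 FPKM in libraries labelled DKO and 13.8 ± 0.504 FPKM in control at P36 (SD, n = 3 each; log2 fold change −0.55, limma adjusted p = 0.0083), and 11.6 ± 0.256 and 14.2 ± 2.21 FPKM at 6 months (−0.26, limma adjusted p = 0.13). Vdr went against the label, with 83.5 ± 6.06 FPKM in libraries labelled DKO and 68.0 ± 4.16 FPKM in control at P36 (0.29, limma adjusted p = 0.0573), and 48.1 ± 5.49 and 40.5 ± 11.6 FPKM at 6 months (0.27, limma adjusted p = 0.302). Vdr was called higher in libraries labelled DKO at P36 with equal library totals (0.30, limma adjusted p = 0.0408), and at 6 months without control replicate 1 (0.49, limma adjusted p = 0.031). These are values over the whole gene, and reads outside a deleted exon would not check the label. Differences below are between libraries as labelled.

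Some libraries of each genotype stood apart at genes of the MHC cluster, the stretch of mouse chromosome 17 that holds H2-Aa, H2-Ab1, H2-Eb1, H2-DMa and H2-DMb1. H2-Ea encodes the alpha chain that pairs with H2-Eb1, and mice of the C57BL/6 type are known not to transcribe it. H2-Ea was listed at 1.04, 0 and 0 FPKM in libraries labelled DKO replicates 1 to 3 at P36 and at 0, 0 and 0.52 FPKM in control at P36. At 6 months it was listed at 2.93, 0 and 3.74 FPKM in libraries labelled DKO and at 0, 3.79 and 3.58 FPKM in control. H2-T-ps, named after its values were seen, divided the libraries in the same way at 6 months, with 14.49, 1.95 and 11.64 FPKM in libraries labelled DKO and 2.88, 20.35 and 15.39 FPKM in control. At P36 it was at 12.95, 7.36 and 1.95 FPKM in libraries labelled DKO and 1.32, 1.1 and 7.45 FPKM in control. The libraries with and without H2-Ea occurred in both genotypes, and its part in the results on class II genes was not tested. Counts of members are therefore also given without control replicate 3 and DKO replicate 1 at P36, and without control replicate 1 and DKO replicate 2 at 6 months, a choice made after the data had been seen. The libraries left out listed H2-Ea above 0 at P36 and at 0 at 6 months, so the libraries kept differ in H2-Ea between the ages. The difference between the ages was not fitted without them.

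At P36, 6 of the 9 genes rose in libraries labelled DKO and none fell (limma on log2(FPKM + 1), Benjamini-Hochberg adjusted p below 0.05), where 23.3% of all 12660 genes tested were called, 18% upward and 5.32% downward. The 6 were the invariant chain Cd74, both I-A chains H2-Aa and H2-Ab1, both peptide exchange genes H2-DMa and H2-DMb1, and the coactivator Ciita. Ciita passed the filter of 1 FPKM in 3 libraries through the DKO libraries alone, which leaves 5. The FPKM ranges of the 6 in the libraries labelled DKO lay wholly above those of control, as did those of 30% of all genes tested, while 9.63% lay wholly below. The 9 genes had a median log2 fold change of 1.04, against 0.09 over all genes tested. Without control replicate 3 and DKO replicate 1, 7 of the 8 genes then tested rose and none fell, where 1895 of all genes were called upward and 814 downward. The number of all genes tested in that fit is not given here, so no share stands beside this count. The added calls were Cd207 and H2-Eb1, and Ciita was then under the filter. DKO replicate 1 held the lowest DKO value of both added genes, and the libraries were chosen after these values had been seen. The higher count therefore depends on that choice.

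Cd74 stood at 236, 266 and 219.7 FPKM in libraries labelled DKO, against 78.2, 96.9 and 120.03 FPKM in control. Each library labelled DKO lay above each control library (log2 fold change 1.30, SE 0.16, limma adjusted p = 0.00137). H2-Ab1, the I-A beta chain, had 130.5, 143 and 116 FPKM in libraries labelled DKO and 42.4, 52.7 and 56.5 FPKM in control (1.35, SE 0.13, limma adjusted p = 0.00061). H2-Aa, its alpha partner, had 173, 148 and 98.0 FPKM in libraries labelled DKO and 39.3, 43.9 and 72.3 FPKM in control, with the largest error of the 6 called genes (1.43, SE 0.27, limma adjusted p = 0.00692). In these 3 genes the group means were 2.45, 2.57 and 2.70 times as high in libraries labelled DKO as in control.

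The peptide exchange pair rose by like amounts. H2-DMa had 8.35, 10.41 and 10.64 FPKM in libraries labelled DKO, against 3.70, 4.83 and 4.25 FPKM in control (log2 fold change 1.04, SE 0.13, limma adjusted p = 0.0016). H2-DMb1 had 12.4, 13.4 and 14.1 FPKM in libraries labelled DKO, against 5.09, 6.97 and 4.91 FPKM in control (1.12, SE 0.14, limma adjusted p = 0.00136). H2-DMb1 shares 22.7% of its 50-base windows with its neighbour H2-DMb2, so reads could be split between these copies and its level is uncertain, while H2-DMa shares none with another gene. Ciita was low, with 1.13, 1.09 and 1.13 FPKM in libraries labelled DKO and 0.41, 0.45 and 0.22 FPKM in control (0.64, SE 0.13, limma adjusted p = 0.0109). It passed the filter of 1 FPKM in 3 libraries through the DKO group alone, so its place among the genes tested depended on being higher there.

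Cd207, Epcam and H2-Eb1 did not pass the test at P36, and their groups overlapped. Langerin (Cd207) had 3.78, 6.89 and 6.10 FPKM in libraries labelled DKO and 3.80, 3.27 and 4.21 FPKM in control (log2 fold change 0.44, 95% interval −0.004 to 0.89, limma adjusted p = 0.147). DKO replicate 1 lay among the control values, and without it the change was 0.66 (limma adjusted p = 0.0163). Epcam had 125, 153 and 140.2 FPKM in libraries labelled DKO and 129, 124.7 and 139 FPKM in control, with a change of 0.09 and a 95% interval of −0.15 to 0.33. H2-Eb1 had 3.74, 37.3 and 52.6 FPKM in libraries labelled DKO and 23.01, 25.2 and 1.38 FPKM in control. Its lowest value in each group belonged to the library that listed H2-Ea above 0, and its 95% interval ran from −1.68 to 3.49 (limma adjusted p = 0.631). With both of these libraries left out H2-Eb1 was called, with a change of 0.86 (limma adjusted p = 0.0144), whereas without control replicate 3 alone the sign turned, to −0.23.

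**Figure D1:**
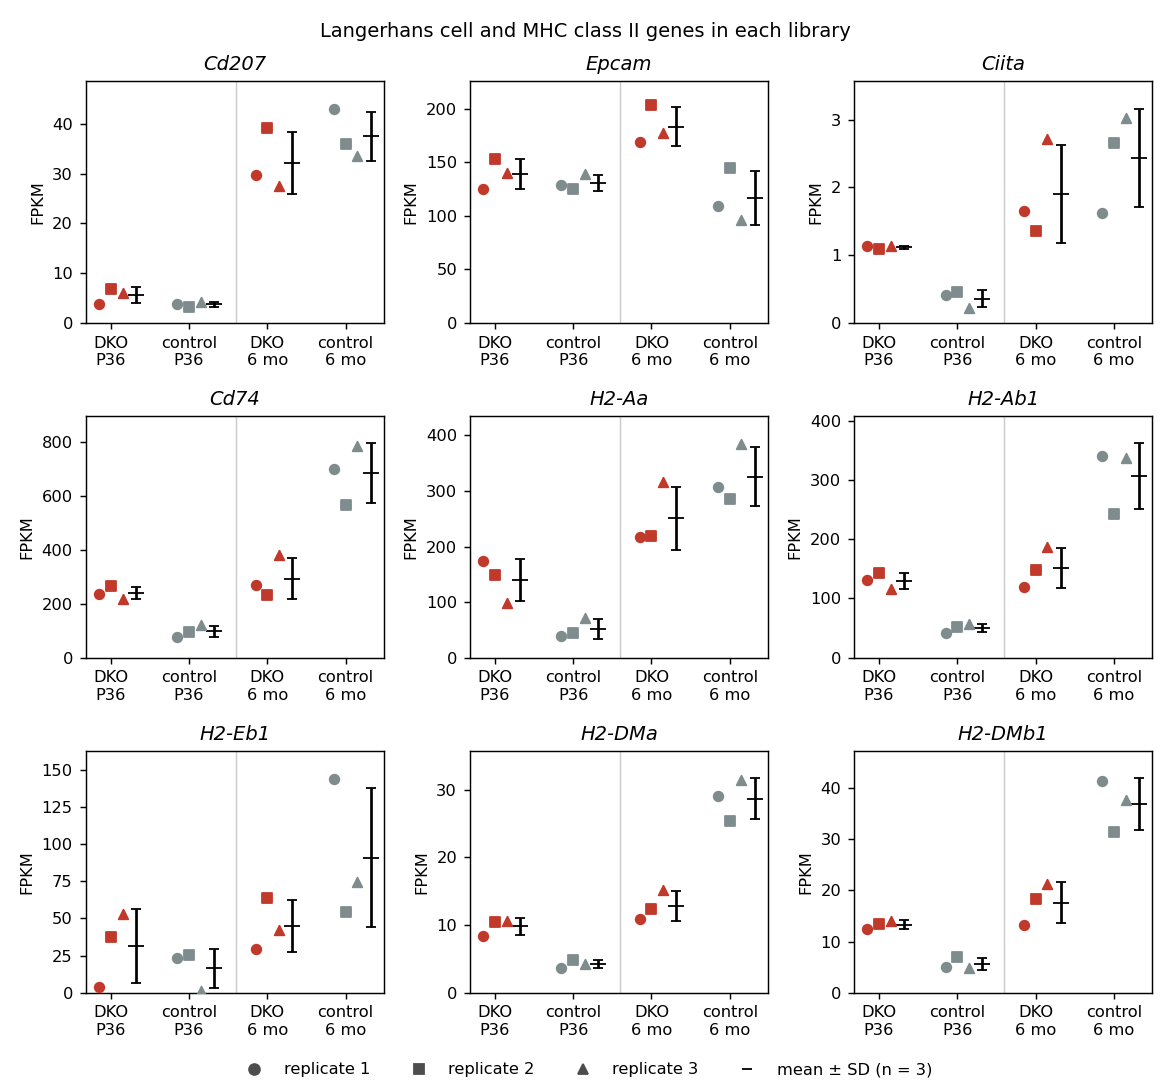
FPKM of each gene (vertical axis, from 0, with its own scale) in the 12 libraries, with the libraries labelled DKO left of control at each age; marker shapes give the replicate number and bars the mean ± SD (n = 3). The P36 values of Cd74, H2-Aa, H2-Ab1, H2-DMa, H2-DMb1 and Ciita are separate and higher in libraries labelled DKO, and those of Cd74, H2-Ab1, H2-DMa and H2-DMb1 are separate and lower there at 6 months, while H2-Eb1 scatters within every group.

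At 6 months, 4 genes fell in libraries labelled DKO and 1 rose, where 41.3% of all 12594 genes tested were called, 18.2% downward and 23.2% upward. The 4 that fell were Cd74, H2-Ab1, H2-DMa and H2-DMb1, and the gene that rose was Epcam. The values of these 5 genes did not overlap between the groups, and over all genes tested the share without overlap was 24% with DKO lower and 31.8% with DKO higher. The median log2 fold change of the 9 genes was −0.95, against 0.05 over all genes tested. Without control replicate 1 and DKO replicate 2, 3 genes fell and none rose: H2-Ab1 then had an adjusted p of 0.0654 and Epcam of 0.117 (limma, with 2 libraries in each group). In that fit 2175 of all genes were called upward and 1698 downward, and the number of all genes tested is not given here, so no share stands beside the count.

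Cd74 stood at 269.9, 232 and 380.2 FPKM in libraries labelled DKO, against 701, 566 and 786 FPKM in control (log2 fold change −1.23, SE 0.21, limma adjusted p = 0.00366). H2-Ab1 had 119.5, 149 and 187 FPKM in libraries labelled DKO and 339.7, 242 and 337 FPKM in control (−1.01, SE 0.20, limma adjusted p = 0.00685). H2-DMa had 10.8, 12.4 and 15.2 FPKM in libraries labelled DKO and 29.0, 25.4 and 31.5 FPKM in control (−1.11, SE 0.14, limma adjusted p = 0.00149). Of these genes H2-DMa had the smallest error. H2-DMb1 had 13.3, 18.2 and 21.3 FPKM in libraries labelled DKO and 41.5, 31.4 and 37.7 FPKM in control (−1.04, SE 0.18, limma adjusted p = 0.00445). The group means in libraries labelled DKO were 0.43, 0.495, 0.447 and 0.477 times those of control for Cd74, H2-Ab1, H2-DMa and H2-DMb1.

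H2-Aa, the I-A alpha chain, did not pass the test at 6 months. H2-Aa had 217, 219.5 and 316 FPKM in libraries labelled DKO and 307, 285 and 385 FPKM in control, with DKO replicate 3 inside the control range (log2 fold change −0.39, 95% interval −0.82 to 0.04, limma adjusted p = 0.131). Without that replicate the change was −0.56 (limma adjusted p = 0.0281). Within each library, log2(FPKM + 1) of H2-Aa exceeded that of H2-Ab1 by 0.86, 0.56 and 0.76 in libraries labelled DKO, and the difference was −0.14, 0.24 and 0.19 in control. These differences did not overlap between the genotypes at 6 months, but at P36 they did, with 0.41, 0.05 and −0.24 in libraries labelled DKO and −0.11, −0.26 and 0.35 in control.

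H2-Eb1 and Ciita did not pass the test at 6 months. H2-Eb1 had 29.2, 63.7 and 42.3 FPKM in libraries labelled DKO and 144, 54.3 and 74.8 FPKM in control (log2 fold change −0.95, SE 0.39, limma adjusted p = 0.0914). The highest value of each group belonged to the library that listed H2-Ea at 0. Without control replicate 2 its change was −1.26 (limma adjusted p = 0.0475). Ciita had 1.65, 1.35 and 2.72 FPKM in libraries labelled DKO and 1.63, 2.65 and 3.03 FPKM in control, with overlapping groups (−0.25, SE 0.23, limma adjusted p = 0.425).

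Of the surface markers, Epcam rose at 6 months and Cd207 was not called. Langerin (Cd207) had 29.7, 39.2 and 27.6 FPKM in libraries labelled DKO and 43.1, 36.1 and 33.5 FPKM in control, with overlapping groups (log2 fold change −0.22, 95% interval −0.59 to 0.14, limma adjusted p = 0.285). Epcam had 169, 204 and 177 FPKM in libraries labelled DKO, each above the highest control value, and 109, 145 and 95.9 FPKM in control (0.66, SE 0.16, limma adjusted p = 0.0163). Without DKO replicate 2 the Epcam call was lost, at 0.59 (limma adjusted p = 0.0607), and it was also lost, at 0.47, when genes of keratins and the cornified envelope were left out of the library totals (limma adjusted p = 0.0556). In these bulk samples fewer cells of a type and less RNA of a gene per cell cannot be told apart. The authors' deposited table gave Cd207 at 6 months a log2 ratio of −0.22 with a q-value of 4.53e-08, and Epcam at P36 a log2 ratio of 0.09 with a q-value of 2.18e-08, where limma called neither.

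**Figure D2:**
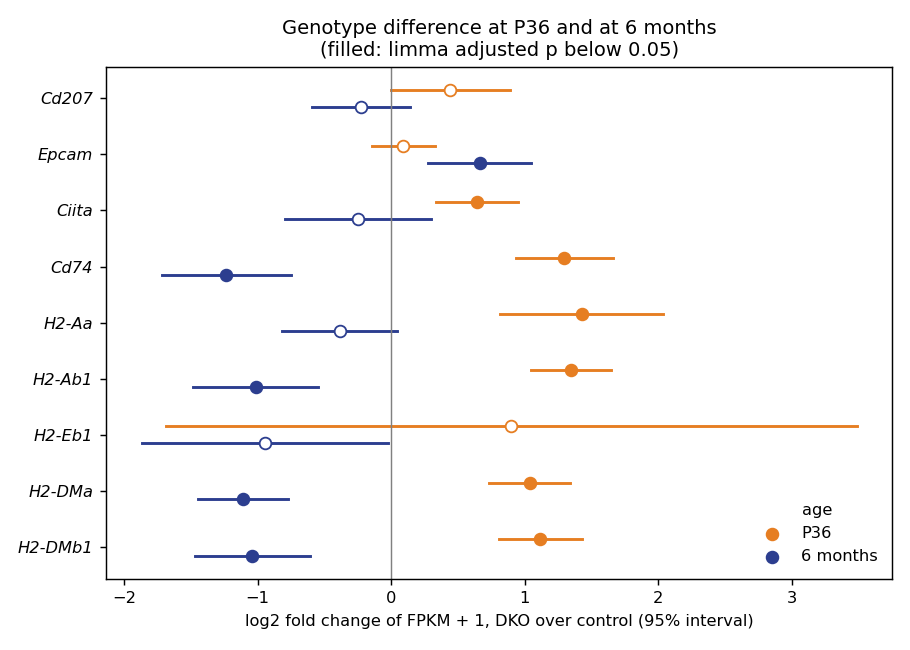
Log2 fold change of FPKM + 1, DKO over control (horizontal axis), for the 9 genes at P36 and at 6 months, with 95% intervals from limma and filled points at an adjusted p below 0.05. The points of Cd74, H2-Ab1, H2-DMa and H2-DMb1 lie between 1.04 and 1.35 at P36 and between −1.23 and −1.01 at 6 months, Epcam is called at 6 months with 0.66, and the interval of H2-Eb1 at P36 spans −1.68 to 3.49.

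The difference between the ages was itself tested as the genotype effect at 6 months minus that at P36, fitted on all 12 libraries. A call shows that the 2 effects differ and not that the direction turned. Only Cd74, H2-Ab1, H2-DMa and H2-DMb1 were called at both ages, in opposite directions. The difference was below 0 and called in 6 of the 9 genes and above 0 in 1. Of all 13280 genes tested, 34.9% were called, 21.1% downward and 13.8% upward. The median over the 9 genes was −1.85 and over all genes tested −0.08. Cd74 had a log2 fold change of −1.23 at 6 months and 1.30 at P36, a difference of −2.53 (limma adjusted p = 0.000135). For H2-Ab1 the difference was −2.36 (limma adjusted p = 0.000119), for H2-DMa −2.15 (limma adjusted p = 6.53e-05), for H2-DMb1 −2.16 (limma adjusted p = 0.000141) and for H2-Aa −1.81 (limma adjusted p = 0.00325). These 5 genes were called in each of the 20 alternative fits, none of which left libraries out together. Of these 5, Cd74 alone is encoded outside the MHC cluster.

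Less secure calls of the same test were those of Ciita, at −0.89 (limma adjusted p = 0.025), and Epcam, at 0.57 (limma adjusted p = 0.0432). Ciita was called in 13 of 19 alternatives and Epcam in 7 of 20. Cd207 had a difference of −0.67 (limma adjusted p = 0.0727), so its genotype effect was not shown to differ between the ages, although 4 of 20 alternatives called it. For H2-Eb1 the difference was −1.85 with an adjusted p of 0.319 (limma), and no alternative called it.

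Levels at the 2 ages were compared without a test, since the tables were made separately. In libraries labelled DKO Cd207 averaged 32.2 ± 6.18 FPKM at 6 months and 5.59 ± 1.62 FPKM at P36, a ratio of means of 5.75. In control libraries the same averages were 37.5 ± 4.95 FPKM at 6 months and 3.76 ± 0.471 FPKM at P36, a ratio of 9.98 (SD, n = 3 each). For Cd74 the ratio of 6 months to P36 was 1.22 in libraries labelled DKO and 6.95 in control. H2-Aa, H2-Ab1, H2-Eb1, H2-DMa, H2-DMb1 and Ciita had ratios of 1.17 to 1.79 in libraries labelled DKO and 5.51 to 6.77 in control. Epcam had ratios of 1.31 in libraries labelled DKO and 0.893 in control. A gene of growing hair also differed in level between the ages: trichohyalin (Tchh), a protein of the inner root sheath of growing hair, had 1189 to 1350 FPKM in libraries labelled DKO and 3726 to 5539 FPKM in control at P36, and at most 4.70 FPKM in any library at 6 months. Its part in the differences between ages was not tested.

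FPKM is scaled by gene length, so the levels of the 9 genes can be ordered. Cd74 was the highest of the 9 in libraries labelled DKO at both ages, with means of 294 FPKM at 6 months and 241 FPKM at P36, and in control at 6 months with 684 FPKM. Its values overlapped those of H2-Aa in libraries labelled DKO at 6 months. In control at P36 Epcam came first, with 131 FPKM, followed by Cd74, with 98.4 FPKM. H2-Aa and H2-Ab1 were neighbours whose values overlapped in control at both ages, with means of 326 and 306 FPKM at 6 months and 51.8 and 50.5 FPKM at P36. H2-DMb1 was above H2-DMa in all 4 groups, with values that overlapped in both groups at 6 months and in neither at P36. Cd207 ranked below H2-DMa in both groups at P36, where the 2 genes overlapped in control. At 6 months Cd207 ranked above H2-DMb1 in both groups and overlapped H2-DMb1 in control. Ciita was the lowest in every group, with means of 1.91 and 2.44 FPKM at 6 months and 1.12 and 0.36 FPKM at P36 in libraries labelled DKO and in control.

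Class II levels were next expressed per library relative to Cd207, as the mean log2(FPKM + 1) of Cd74, H2-Aa and H2-Ab1 minus that of Cd207. At P36 this difference was 5.20, 4.51 and 4.27 in libraries labelled DKO and 3.43, 3.86 and 3.94 in control, without overlap. At 6 months it was 2.65, 2.30 and 3.31 in libraries labelled DKO and 3.25, 3.20 and 3.76 in control, where DKO replicate 3 fell inside the control range. With H2-Eb1 in the mean, the score as first planned and changed after its values were seen, it averaged 3.92 ± 0.03 in libraries labelled DKO and 3.12 ± 0.44 in control at P36, and 2.17 ± 0.40 and 2.84 ± 0.28 at 6 months (SD, n = 3 each). No test was run on these scores. Epcam minus Cd207 averaged 4.44 ± 0.24 in libraries labelled DKO and 4.79 ± 0.07 in control at P36, and 2.49 ± 0.15 in libraries labelled DKO and 1.598 ± 0.34 in control at 6 months (SD, n = 3 each). H2-Eb1 minus H2-Ab1 was −4.79, −1.91 and −1.12 in libraries labelled DKO and −0.85, −1.04 and −4.59 in control at P36. The 2 lowest of these were the P36 libraries with H2-Ea above 0.

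**Figure D3:**
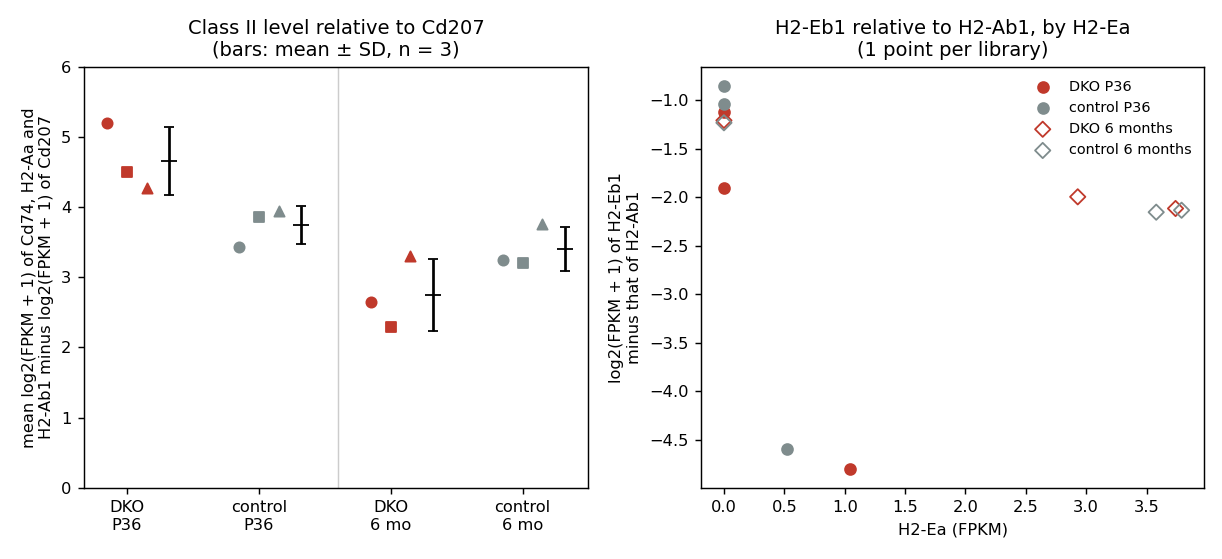
Left, the mean log2(FPKM + 1) of Cd74, H2-Aa and H2-Ab1 minus that of Cd207 in each library, by group, with mean ± SD (n = 3). Right, log2(FPKM + 1) of H2-Eb1 minus that of H2-Ab1 (vertical axis) against H2-Ea in FPKM (horizontal axis), 1 point per library: the 6 libraries listing H2-Ea above 0 include the lowest values, −4.79 and −4.59, at P36 and values of −2.16 to −2.00 at 6 months.

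Other genes of the class II pathway were tested as a list. For this list and those below, the shares of all genes called were 18% upward and 5.32% downward at P36. They were 23.2% upward and 18.2% downward at 6 months, and 13.8% upward and 21.1% downward for the difference between the ages. At P36, 3 of 9 tested genes of this list rose and none fell. Cathepsin S (Ctss), the protease that trims the invariant chain, had 65.2, 65.9 and 36.8 FPKM in libraries labelled DKO and 4.71, 5.15 and 7.98 FPKM in control (log2 fold change 3.02, limma adjusted p = 0.000474). The endosomal enzymes Lgmn and Ifi30 rose by 0.92 and 0.78 on the log2 scale. At 6 months 3 of 13 tested genes rose, near the share over all genes, and 1 fell. The cathepsins Ctsd (1.37), Ctsl (0.89) and Ctsb (0.61) rose, and the call of Ctsb was kept in 14 of 16 alternatives. Marchf8, a ubiquitin ligase that lowers class II on the cell surface, fell by 0.50. That call was lost without control replicate 2, control replicate 3 or DKO replicate 1. The median log2 fold change of the list was 0.30 at P36, with 5 genes called when control replicate 3 and DKO replicate 1 were left out, and −0.14 at 6 months. H2-DMb2, which shares sequence with H2-DMb1, missed the threshold at both ages, with changes of 1.36 at P36 (limma adjusted p = 0.067) and −0.70 at 6 months (limma adjusted p = 0.0554).

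None of the 8 class II transcription factors tested, which include Rfx5, Rfxap, Rfxank, Nfya, Nfyb, Nfyc and Creb1, was called by limma at either age. The number at an unadjusted p below 0.05 was also 0 at both ages, and the smallest adjusted p was 0.238 for Rfx1 at P36 and 0.136 for Nfya at 6 months. At 6 months 1 of them was called lower without control replicate 1, and 1, Nfya, was called lower with equal library totals (−0.37, limma adjusted p = 0.0319) and when keratin and cornified envelope genes were kept out of the totals (−0.41, limma adjusted p = 0.0205), against −0.22 as deposited. The list's median log2 fold change was 0.03 at P36 and 0.05 at 6 months, close to the 0.09 and 0.05 of all genes. Rfx1 changed by 0.24 at P36 and Rfxank by 0.25 at 6 months.

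MHC class I presentation genes rose at P36 with the class II genes. Of 15 tested, 12 rose and none fell, with a list median of 0.87. Without control replicate 3 and DKO replicate 1, 13 rose and none fell. Nlrc5, the class I counterpart of Ciita, had 9.19, 12.6 and 11.5 FPKM in libraries labelled DKO and 4.86, 4.17 and 4.92 FPKM in control (log2 fold change 1.09, limma adjusted p = 0.00138). The class I light chain B2m rose by 1.51, the heavy chain H2-D1 by 1.07 and the immunoproteasome subunit Psmb9 by 1.41 on the log2 scale. At 6 months 2 of the 15 rose and 4 fell, with a median of −0.22: B2m rose by 0.65, and H2-Q4, Tap1 and Tapbp fell by 0.53, 0.75 and 0.60. Without control replicate 1 and DKO replicate 2, 1 rose and 6 fell. Nlrc5 had 32.8, 27.2 and 31.0 FPKM in libraries labelled DKO and 32.5, 33.6 and 29.3 FPKM in control at 6 months, with overlapping groups (−0.07, limma adjusted p = 0.634). The difference between the ages was called below 0 in 11 of the 15 and above 0 in none.

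Interferon gamma, a known inducer of Ciita, was itself close to the lower end of the scale. Ifng was at most 0.05 FPKM in any P36 library, and averaged 0.447 ± 0.163 FPKM in libraries labelled DKO and 0.0533 ± 0.0924 FPKM in control at 6 months, under the filter. Of its receptor, signalling and target genes, 9 of 11 tested rose at P36, 2 of them (Cxcl10 and Cd274) through a filter passed by the DKO libraries alone, and among the 9 were the kinase Jak1 (1.199), the transcription factor Irf1 (0.92), the receptor chain Ifngr1 (0.92) and the chemokine Cxcl10 (1.40). That count was 5 without control replicate 2, DKO replicate 2 or DKO replicate 3, and 6 without any other single library. At 6 months 5 of 12 rose and none fell, among them Cxcl9 (1.14), the receptor chain Ifngr2 (0.99), Cxcl10 (0.71) and Cd274 (0.66).

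Further Langerhans cell genes gave a mixed picture. At P36, 9 of 14 tested rose and 1 fell, and 3 of the 9 (Itgam, Itgax and Ptprc) passed the filter through the DKO libraries alone, which leaves 6. Among the 6 was Csf1r, the receptor for Csf1 and Il34 that Langerhans cells need to survive, with 13.4, 12.6 and 12.4 FPKM in libraries labelled DKO and 3.43, 3.83 and 4.21 FPKM in control (log2 fold change 1.52, limma adjusted p = 0.000226). The leucocyte genes Itgam, Tyrobp and Ptprc rose by 1.59, 2.42 and 1.27. The total was 6 without DKO replicate 1 and 5 without DKO replicate 2 or 3. At 6 months 4 rose and 4 fell, with a list median of −0.01: Cd24a and Cd1d1 rose by 1.81 and 1.54, and Axl and Sirpa fell by 1.25 and 0.45. Csf1r fell to 8.10, 7.47 and 14.3 FPKM in libraries labelled DKO, against 14.7, 16.1 and 16.8 FPKM in control (−0.67, limma adjusted p = 0.0451). This call was lost without any 1 library other than DKO replicate 3, with adjusted p from 0.0722 to 0.14 (limma). The total was 5 without control replicate 2 and 4 without DKO replicate 2.

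Of 14 genes that supply or guide Langerhans cells in the epidermis, the difference of the genotype effect between the ages was called below 0 in 8 and above 0 in 3, a total that was 6 to 9 without any single library. Il34, the keratinocyte cytokine on which Langerhans cells depend, fell at 6 months to 22.9, 21.9 and 20.7 FPKM in libraries labelled DKO, against 65.4, 61.4 and 70.02 FPKM in control (log2 fold change −1.55, limma adjusted p = 0.000135). At P36 it had 10.7, 13.6 and 15.4 FPKM in libraries labelled DKO and 10.7, 9.34 and 5.59 FPKM in control (0.60, limma adjusted p = 0.0894), and the difference between the ages was −2.15 (limma adjusted p = 0.00024). Of the list, 6 rose and 1 fell among 12 tested at P36, with Csf1 (1.19), Ccl2 (2.35), Tgfb1 (0.61) and the TGF-beta activating integrin chain Itgb8 (0.82) rising. Itgb8 at P36, like Ccr6 at 6 months, passed the filter through the DKO libraries alone. That total of 7 was 4 without DKO replicate 2. At 6 months 4 rose and 4 fell among 14, with the chemokine Ccl20 (1.84) and Itgb8 (1.47) higher and the chemokine Cxcl14 (−3.02) lower. The total of 8 was 5 without control replicate 2, DKO replicate 1 or DKO replicate 2.

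Epcam was set beside a list of genes of its partners. At 6 months the tetraspanin Cd9 and the protease inhibitor Spint2 fell by 0.52 and 0.51, and the tight junction gene Cldn1 rose by 0.48. In all, 2 of 7 tested rose and 4 fell, and this total of 6 was 3 without control replicate 2. At P36 1 rose and 1 fell among 8: Cd44 rose by 0.46 and the protease St14 fell by 0.58. Each P36 total without control replicate 2, DKO replicate 1 or DKO replicate 2 was 1.

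Among markers of other class II bearing cells, 10 of 10 macrophage genes and 2 of 4 conventional dendritic cell genes tested rose at P36, and no gene of either list was called lower at 6 months. The macrophage list, with genes such as Lyz2, Mrc1, Adgre1 and C1qc, summed at P36 to 279 to 437 FPKM in libraries labelled DKO and 56.3 to 76.8 FPKM in control. None of its genes was at 0 in a whole group, and 2 of 10, Csf3r and Msr1, were below 1 FPKM in each control library. These 2 passed the filter at P36 through the DKO libraries alone, which leaves 8 that rose. At 6 months none of 8 tested was called by limma, or reached an unadjusted p below 0.05, and the sum was 82.7 to 387 FPKM in libraries labelled DKO and 71.9 to 131 FPKM in control, with DKO replicate 3 the highest. Conventional dendritic cell genes summed to 15.7 to 20 FPKM in libraries labelled DKO and 7.53 to 10.2 FPKM in control at P36, where Irf8, which passed the filter through the DKO libraries alone, and Clec10a rose among 4 tested. At 6 months they summed to 11.6 to 22.9 and 12.6 to 19.5 FPKM, and Itgae rose among 6 tested. Of this list, Xcr1 and Clec9a stayed below 1 FPKM in every library. Clec10a averaged 9.42 FPKM in libraries labelled DKO and 4.0 FPKM in control at P36, and 3.37 and 2.7 FPKM at 6 months.

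B cell markers were near 0, with sums of at most 0.78 FPKM in libraries labelled DKO and 0.57 FPKM in control. T cell genes summed to 95.2 to 118 FPKM in libraries labelled DKO and 27.2 to 34.4 FPKM in control at P36, with 3 of 4 tested higher (Thy1, Cd3g and Cd3e), and to 97.7 to 102 and 102 to 142 FPKM at 6 months, where Cd8a rose and Thy1 fell among 5 tested. Cd8a passed the filter through the DKO libraries alone, which leaves no gene that rose, and it was under the filter without any single DKO library. Without DKO replicate 1 or DKO replicate 2 Thy1 was not called. Thy1 made up much of the T cell sums. It averaged 92.8 FPKM in libraries labelled DKO and 26.1 FPKM in control at P36, and 52.2 and 80.3 FPKM at 6 months. Of the other T cell genes, Cd3g, Cd3d, Cd4 and Cd8a averaged higher in libraries labelled DKO at 6 months, and Cd3e averaged lower. Genes of costimulation rose in 3 of 4 tested at P36 (Icam1, Cd86 and Cd274, the last 2 through a filter passed by the DKO libraries alone), or 1 of them without any single DKO library, and in 2 of 4 at 6 months (Cd274 and Icosl), or 1 without DKO replicate 1. Skeletal muscle genes, from a tissue below the skin, summed to 114 to 470.3 FPKM in libraries labelled DKO and 13.5 to 25.9 FPKM in control at P36, and to 10.8 to 122 and 9.17 to 53.8 FPKM at 6 months. At P36 6 of 6 tested rose, among them Tnnt3 (4.21), Acta1 (4.09) and Ckm (3.78). Myh4 passed the filter through the DKO libraries alone, which leaves 5. At 6 months none of 5 tested muscle genes was called by limma. Dermal fibroblast genes summed to 978 to 1366 FPKM in libraries labelled DKO and 559 to 1144 FPKM in control at P36, and to 296 to 923 and 461 to 893 FPKM at 6 months. Of 6 tested, Pdgfra (1.15) and Lum (1.28) rose at P36 and none fell. At 6 months none of the 6 was called by limma. Red blood cell genes, whose near-identical copies make single levels uncertain, rose at 6 months in 4 of 5 tested, among them the globins Hbb-bs (2.77) and Hbb-bt (2.51), and summed to 113 to 273 FPKM in libraries labelled DKO and 42 to 114 FPKM in control. That count was 1 without DKO replicate 1 and 2 without DKO replicate 3. Of the 4, Alas2 passed the filter through the DKO libraries alone, which leaves 3. At P36 none of the 5 was called by limma, or reached an unadjusted p below 0.05, and 4 were called without DKO replicate 3; the sums were 49.1 to 508 and 99.1 to 138 FPKM. Sebaceous gland genes rose at P36 in 4 of 4 tested, with Awat2 at 2.43 and Krt79 at 1.61, and at 6 months in 2 of 4, Krt79 (2.74) and Mgst1 (2.15). The part of macrophages, dermal tissue, muscle, blood and sebaceous glands in the class II results was not tested.

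**Figure D4:**
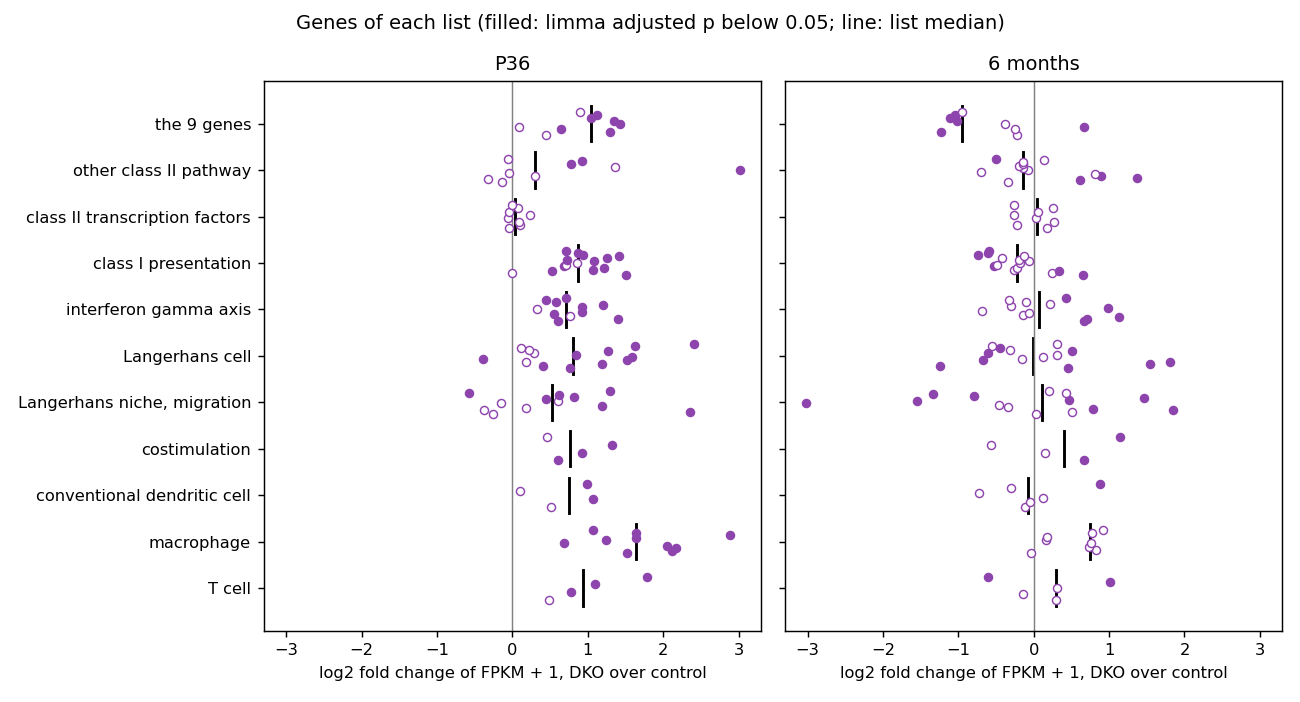
Log2 fold change of FPKM + 1, DKO over control (horizontal axis), of each tested gene in 11 lists at P36 (left) and 6 months (right), with filled points at a limma adjusted p below 0.05 and a line at the list median. The 9 genes have medians of 1.04 and −0.95, class I genes of 0.87 and −0.22, and class II transcription factors lie near 0 at both ages.

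Genes with the most similar pattern were sought over the 12 libraries, as the smallest root-mean-square difference of log2(FPKM + 1) after each gene was centred on its own mean, among 12507 genes with a mean of at least 1 FPKM. For H2-Ab1 the closest were 3 of the 9 genes themselves, Cd74 at 0.167, H2-DMb1 at 0.175 and H2-DMa at 0.181, followed by Cav1 at 0.231, Pip4k2a at 0.268 and S100a4 at 0.283. The class II genes were not among the 3 closest to Cd207, which were H2-M2 at 0.232, Ppp2r3a at 0.265 and Cyp2j6 at 0.268. H2-M2 averaged 18.7 FPKM in libraries labelled DKO and 25 FPKM in control at 6 months, and 2.35 and 2.06 FPKM at P36. For Ciita the closest were Arhgef6 at 0.150, Trib3 at 0.173 and Sap25 at 0.179, and for Epcam they were Pdia3 at 0.129, Crnkl1 at 0.143 and Hspa8 at 0.143. These values describe 12 libraries that share age and genotype groups.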

How the data were processed

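Dorsal skin was warmed from its dermal side to free the epidermis, the RNA was depleted of ribosomal RNA by RNase H digestion, and libraries were read as 50-base single ends on a BGISEQ-500, per the labels' protocols. HISAT2 2.1.0 and RSEM 1.2.8 are listed in the submitters' processing notes, where the genome builds given are the human GRCh38 and hg38 although the samples are mouse, so no coordinates were taken from them. The authors deposited 1 table per age with FPKM values for each gene and library, and the age of a table is given by its name. Per the file headers, these tables also hold the authors' own log2 ratios (DKO over control), p-values and q-values, from a test that the sources used here do not name.

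Symbols came from a RefSeq table of GRCm38.p6, where 19343 of 19392 Entrez identifiers of the P36 table and 17712 of 17750 of the 6-month table were found. In R 4.3.3, limma 3.58.1 with a variance trend was fitted to log2(FPKM + 1) where 3 or more of the fitted libraries reached 1 FPKM. Fold changes of low genes are understated on this scale. Adjustment followed Benjamini and Hochberg over every tested gene, with calls made below 0.05. There was 1 fit per age, on 6 libraries, and the difference of the genotype effect (6 months minus P36) was fitted on all 12. The fits were tested on simulated data. FPKM values carry no read counts, so no counting interval is given. At most 0.41% of genes had identical values in 2 libraries. Alternatives were another pseudocount, other filters, 3 other scalings, a constant variance prior, a replicate block, a joint fit, and each library left out in turn.

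The 9 genes and the other gene lists were chosen with earlier results of these data known. The text names the 9 genes, Vdr and Med1, up to 4 genes per list and age with the smallest adjusted p (up to 2 with the smallest p where none was called), and the 3 genes closest in pattern to Cd207, H2-Ab1, Ciita and Epcam. For some lists not every gene picked, or its change, is given. Genes outside this rule, H2-Ea, H2-T-ps, H2-DMb2, Tchh, Xcr1, Clec9a and Ifng among them, and Csf1r, Il34 and Nlrc5 at the age where the rule did not pick them, were named after their values had been seen. Shared 50-base windows were counted over GENCODE transcripts. Proteins were not used here. A gene that this rule picks is not reported here.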

Additional observations from a re-analysis of the deposited data

Results flagged for a closer look

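The genotype effect differed between the ages in 7 of the 9 genes, by a test of the difference itself (6 months minus P36, limma on 12 libraries, with adjusted p-values as given in the report). Of all 13280 genes tested, 34.9% were called. The differences were −2.53 for Cd74, −1.81 for H2-Aa, −2.36 for H2-Ab1, −2.15 for H2-DMa, −2.16 for H2-DMb1 and −0.89 for Ciita on the log2 scale, and 0.57 for Epcam. The calls of Ciita and Epcam were less secure, kept in 13 of 19 and 7 of 20 alternatives. For Cd74, H2-Ab1, H2-DMa and H2-DMb1 the libraries labelled DKO lay above control in 3 of 3 at P36 and below control in 3 of 3 at 6 months. For H2-Aa and Ciita the groups did not overlap at P36 and overlapped at 6 months, and for Epcam they overlapped at P36 and did not at 6 months.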

How the results depend on the processing

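Read numbers were not given, which limits what low values such as those of Ciita and H2-Ea can show. Against the 6 members called at P36, single-library omissions gave 5 to 6; against 5 at 6 months they gave 4 to 6, and 3 were called without control replicate 1 and DKO replicate 2; against 7 for the difference between ages they gave 5 to 7. Over all genes the omissions gave 1662 to 2660 calls against 2949 at P36 (1662 without DKO replicate 2 and 1697 without DKO replicate 3), 3682 to 4893 against 5207 at 6 months, and 3603 to 4843 against 4631 for the difference. The shares of genes tested in these omissions are not given. Signs turned for Epcam at P36 with median-ratio scaling (−0.0125) and for H2-Eb1 at P36 without control replicate 3 (−0.23; 1.99 without DKO replicate 1), and the cause was not tested. H2-Aa at 6 months was called with totals computed without keratin and cornified envelope genes (−0.58, limma adjusted p = 0.0373). Scaling moved the share of upward calls over all genes. At P36 it was 77.1% as deposited and 63.8% with median-ratio scaling, and at 6 months 56% as deposited, 39.6% with equal totals and 35.1% without keratin and cornified envelope genes in the totals. The median change of all genes at 6 months moved from 0.05 to −0.13 with the last of these. For the difference it was 39.5%, 24.7% and 27.2%, and the median change of all genes moved from −0.08 to −0.23 with equal totals. Same-numbered libraries did not pair (correlations of deviations 0.135, −0.058 and −0.115 at P36 and −0.063, 0.032 and 0.183 at 6 months), and a replicate block gave 6, 6 and 7 member calls at P36, at 6 months and for the difference, where H2-Aa became the sixth at 6 months (−0.39, limma adjusted p = 0.0426), with 2607, 4862 and 4223 calls over all genes. Of 62 calls of named genes outside the 9 that were followed gene by gene, 14 were lost in at least 1 alternative that tested them: Cd44, Cd3e, Cd274, Tgfb1 and Clec10a at P36, and Csf1r, Marchf8, Ctsb, B2m, Cldn1, Cd9, Spint2, Thy1 and Icosl at 6 months. The calls of Itgax, Ccr6, Csf3r, Msr1 and the skeletal muscle, dermal fibroblast, red blood cell and sebaceous gland genes were not among those followed. The red blood cell count fell without single libraries, as given above. At P36 Ciita, Itgam, Itgax, Ptprc, Irf8, Itgb8, Cxcl10, Cd86, Cd274, Csf3r, Msr1 and Myh4 passed the filter through the DKO libraries alone. So did Cd8a, Ccr6 and Alas2 at 6 months. Nlrc5 at 6 months, which was not called, turned to 0.02223 without control replicate 1 and DKO replicate 2 and to 0.005866 without DKO replicate 2, where single omissions ranged from −0.1264.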
